A study of Mus musculus with 2 samples.

Results

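Mature neutrophils were the subject of this comparison: the barcodes of 2 single-cell RNA libraries that carried the transcripts of fully differentiated neutrophils and few of the granule transcripts of their precursors. KO mice carried Cre recombinase under the albumin promoter together with floxed Bicd2 alleles (Alb-Cre Bicd2 fl/fl), and WT mice carried the same floxed alleles without Cre (Alb-WT Bicd2 fl/fl). The albumin promoter drives Cre in hepatocytes, so the neutrophils themselves were not the cells targeted, and Bicd2 encodes an adaptor that links cargo to the dynein motor. Per the treatment protocol in the labels, mice of both genotypes were immunized each week for 3 weeks with 2.5 mg of S-100, the cleared supernatant of homogenized mouse liver emulsified in complete Freund's adjuvant and injected intraperitoneally. The labels call this a chronic model of autoimmune hepatitis (AIH). Per the series' design text, a Percoll gradient then enriched the liver leukocytes, red cells were lysed, and live cells were sorted and pooled for 10x capture. The sample labels instead name peritoneal immune cells and a treatment tag HFD, and the labels do not settle this conflict. Ages and the number of mice per library were not given in the sources used here.

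Members were chosen by UMIs, the count of distinct captured transcripts. Barcodes needed at least 200 genes, at most 20% mitochondrial UMIs and at most 10% haemoglobin UMIs. Among these, members held at least 3 UMIs over the maturity genes Csf3r, Cxcr2, Retnlg, Stfa2l1 and Mxd1, at least 1% of their UMIs in S100a8 plus S100a9, and under 0.5% in the precursor granule genes Camp, Ngp and Ltf. They held 0 UMIs of Csf1r, Cd3e and Cd79a, which mark monocytes, T cells and B cells. The rule found 3809 members, 1235 in the KO library and 2574 in the WT library, among 49230 deposited barcodes and 27478 that passed the filters. All members are counted below, and no count is given over a selection of them unless stated. Each genotype was 1 library, so no difference below has a replicate check or a p-value. All intervals are 95% intervals for counting error only, since UMIs of 1 cell or mouse are not independent samples.

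Neutrophils are short-lived granulocytes that mature in the marrow, lose the transcripts of their primary and secondary granules as they do so, and enter inflamed tissue through chemoattractant receptors such as CXCR2. In inflamed liver they gather in the sinusoids, where they meet cytokines from lymphocytes. Interferon-gamma, made mainly by T and NK cells, drives in them guanylate-binding proteins, immunity-related GTPases, antigen presentation genes and PD-L1, while type I interferons act mainly on antiviral genes.

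The libraries differed in quality. Of 27033 KO barcodes, 16134 (59.7%) held over 10% haemoglobin UMIs, against 5359 of 22197 WT barcodes (24.1%). KO members had a median of 992 UMIs (quartiles 774 and 1282.5) and 591 genes, and WT members 1583 UMIs (1121.5 and 2238.75) and 839.5 genes. Haemoglobin took a median of 2.76% of UMIs in KO members and 0.88% in WT members, although red-cell RNA is not made by neutrophils. Mitochondrial RNA took 0.37% and 0.41%. Of 8 erythroid markers measured in members, 7 were at least 2-fold higher in KO, and their summed level was 26680 UMIs per 1000000 (CPM) in KO and 9439 CPM in WT. From S100a8 and S100a9 in B cells, taken as barcodes with at least 2 Cd79a UMIs, free RNA was put at 160 UMIs per KO barcode and 195 per WT barcode, which is 13.8% of KO member UMIs and 10.7% of WT member UMIs. These rest on a median of 1 such UMI per KO B cell and 9 per WT B cell. With means in place of medians the shares were 49.1% in KO and 61.3% in WT, so neither their size nor their order is settled. Scrublet marked 99 KO members (8.02%) and 395 WT members (15.3%) as doublets. The libraries shared 177 cell barcodes, 1 of them a member, and both carried Y-linked transcripts with Xist at 0 UMIs in KO members and 1 UMI in WT members. Bicd2 itself held 9 UMIs in KO members (6.28 CPM) and 34 in WT members (7.26 CPM), which checks nothing, since the deletion is in hepatocytes. The part of depth, haemoglobin and free RNA in the differences below was not tested beyond the alternatives named.

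The label was checked against marker genes. Hdc, the histamine-forming enzyme of granulocytes, was not used by the rule and stood at 1695 CPM in KO members and 1891 CPM in WT members, against 46.6 CPM and 148 CPM in all other passing barcodes of each library. Nlrp12, an inhibitory sensor of myeloid cells that the rule did not use either, stood at 637 CPM in KO members and 339 CPM in WT members, against 15.7 CPM and 20.1 CPM in the other barcodes. The genes the rule did use were Csf3r, the G-CSF receptor (4721 CPM in KO, 3298 CPM in WT), Cxcr2 (1587 and 1510 CPM), Retnlg (6419 and 16619 CPM), Stfa2l1 (518 and 1234 CPM) and Mxd1 (1683 and 1555 CPM). S100a8 and S100a9, which form calprotectin, reached 48472 and 56147 CPM in KO members and 60774 and 76405 CPM in WT members. These values chose the members and are given as a description. Markers of other leukocytes were low in both: T-cell markers summed to 359 CPM in KO and 425 CPM in WT, B-cell markers to 243 and 246 CPM, NK-cell markers to 329 and 490 CPM, and monocyte and macrophage markers to 329 and 698 CPM. Csf1r, Cd3e and Cd79a were at 0 by the rule. Of 10 monocyte and macrophage markers measured, 2 were at least 2-fold lower in KO, and Ly6c2 alone made 96.3 CPM in KO and 452 CPM in WT.

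At the edge of the rule, 25 KO and 58 WT members held exactly 3 maturity UMIs, and 20 KO and 66 WT barcodes just outside held 2. For S100a8 plus S100a9, 42 KO and 98 WT members lay at 1% to 2% of UMIs, and 13 KO and 75 WT barcodes lay just below at 0.5% to 1%. The rule on Camp, Ngp and Ltf fell differently in the libraries: 3 KO and 203 WT members lay at 0.25% to 0.5%, and 6 KO and 96 WT barcodes at 0.5% to 1%. A single UMI of Csf1r, Cd3e or Cd79a kept out 299 KO and 1033 WT barcodes that otherwise qualified.

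Mature neutrophils made up 11.4% of passing KO barcodes (exact binomial interval 10.8 to 12.04) and 15.4% of passing WT barcodes (14.9 to 16.0). The log2 ratio was -0.44 (-0.53 to -0.34), a share 1.35-fold lower in KO. Immature non-dividing neutrophils, which pass the same filters and zeros but hold at least 0.5% of UMIs in Camp, Ngp and Ltf and 0 in Mki67 and Top2a, were far fewer: 68 in KO (0.629%) and 1048 in WT (6.29%). Of mature plus immature neutrophils, 94.8% were mature in KO and 71.1% in WT, so on that denominator the direction turned (log2 0.42). It also turned when the granule threshold was set at 0.1% of UMIs, with 11.1% in KO and 9.58% in WT. The libraries also differed in barcodes without granule UMIs: 93.4% of KO members had no UMI of Camp, Ngp or Ltf, against 28.3% of WT members. B cells, which do not make these genes, had none in 95.5% of KO and 21.4% of WT barcodes. The parts of free RNA, depth, doublets and the members' own granule RNA in this were not tested. With passing barcodes of at least 1000 UMIs thinned to 1000 before the rule, the shares were 7.92% in KO and 16.9% in WT. That setting left out barcodes under 1000 UMIs, among them 630 KO and 478 WT members, so it is not a share corrected for depth. Red-cell lysis, the gradient and the live sort also set these shares, and fewer neutrophils and more of other cells cannot be told apart.

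**Figure D1:**
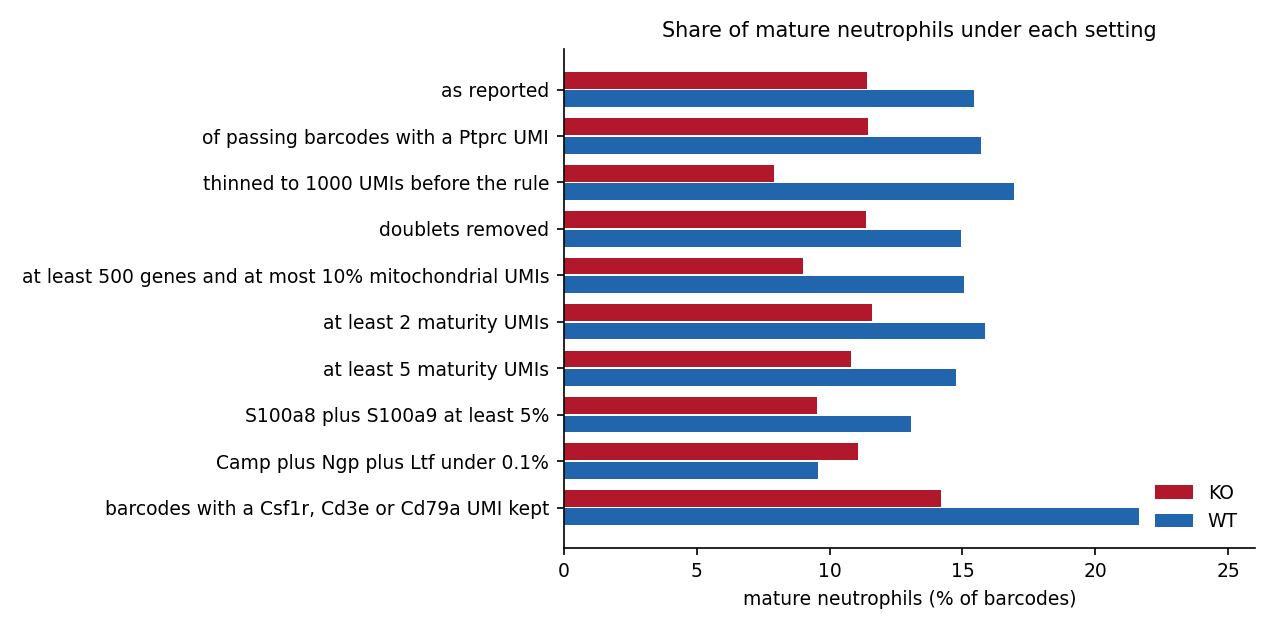
Mature neutrophils as a percentage of barcodes in the KO and WT libraries (bars), as reported and under 9 other settings, with 1 library per bar. The KO bar was the shorter in all settings shown except the granule threshold of 0.1%, where it was 11.1% against 9.58%.

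Interferon-inducible genes led the eligible genes lower in KO members, from which markers of other cell types and stages were left out. UMIs were summed over members and scaled to CPM, and 9744 genes with at least 20 UMIs in both libraries together were compared. Of these, 7.12% were at least 2-fold lower in KO, 2.83% at least 2-fold higher and 49.8% lower by any amount, with a median log2 ratio of 0.00. Among 103 eligible lower genes, the 12 with the lowest ratios were Gbp5, Igtp, Gbp2, Cxcl10, Ifi47, Ly6i, Ly6a2, Irgm1, H2-Q4, Gbp3, H2-Q6 and Zbp1. Elane, a marker of early progenitors and so not eligible, had the lowest ratio of all 9744 genes (log2 -5.42, against -3.40 for Gbp5). Guanylate-binding proteins (Gbp2, Gbp3, Gbp5) and immunity-related GTPases (Igtp, Irgm1, Ifi47) act on the membranes around intracellular microbes.

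Gbp5 stood at 41.9 CPM in KO members and 450.5 CPM in WT members, 10.8-fold lower in KO (exact interval 8.33 to 14.2). Gbp2 stood at 130.4 CPM in KO and 911 CPM in WT, 6.99-fold lower (6.03 to 8.13). With members thinned to 1000 UMIs, 8.60% of KO members and 44.9% of WT members held a Gbp2 UMI, against 2.02% and 10.2% of B cells thinned alike, and 9.47% and 55.3% of members unthinned. Igtp stood at 31.4 CPM in KO and 233 CPM in WT (7.43-fold lower), and Irgm1 at 32.8 and 168 CPM (5.12-fold lower). Zbp1, a sensor of Z-form nucleic acid, stood at 45.3 CPM in KO and 194 CPM in WT. Cxcl10, a chemokine for CXCR3-bearing T cells, differed in another way: at 41.9 CPM in KO and 293 CPM in WT, its UMIs came from few cells, with 96.7% of them in the top 1% of KO members and 46.5% in the top 1% of WT members. Gbp2 drew on more cells, with a UMI in 9.47% of KO members and 55.3% of WT members unthinned.

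**Figure D2:**
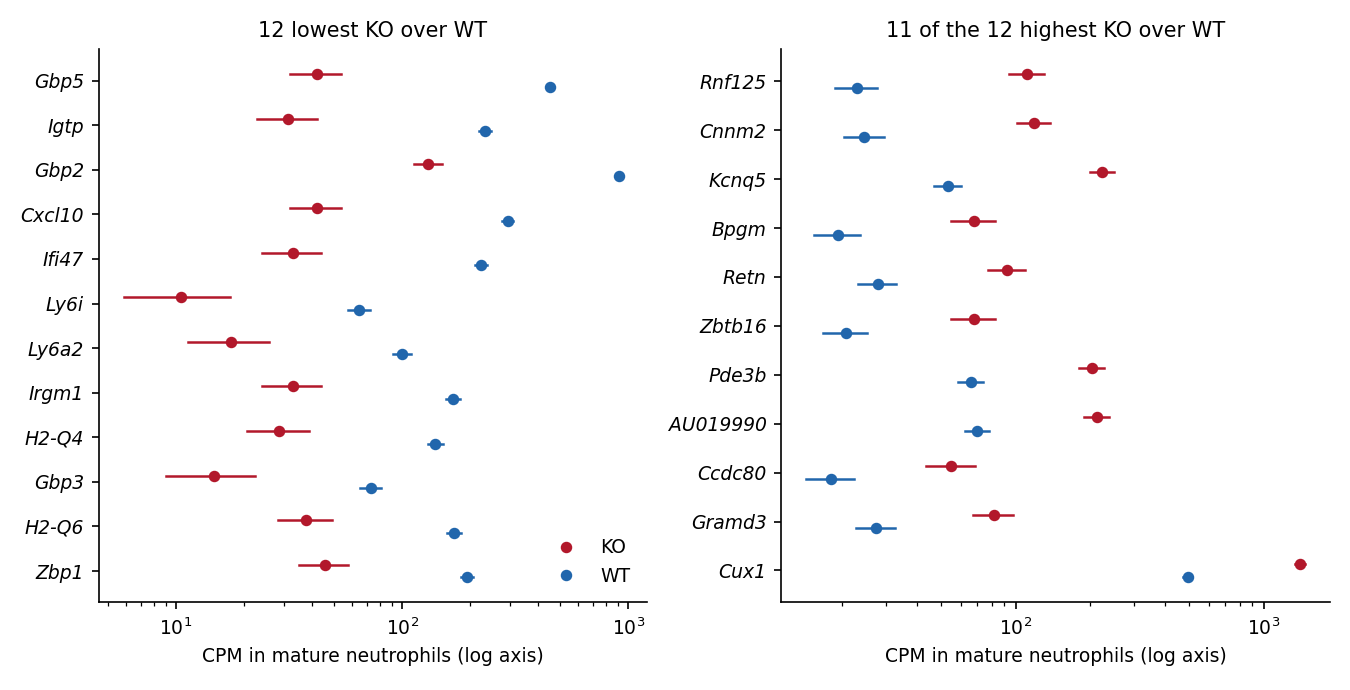
CPM (log axis) in mature neutrophils of the 12 lowest eligible genes by KO over WT ratio, and of 11 of the 12 highest. Points carry exact Poisson intervals for KO and WT, 1 library each. On the left every KO point lies below its WT point, with Gbp5 at 41.9 and 450.5 CPM; on the right every KO point lies above it, with Cux1 at 1403 and 494 CPM.

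The promoters of several of these genes carry the letters that interferon-activated factors bind. The gamma-activated site (GAS) was searched as TTCNNNGAA. Interferon regulatory factors bind an interferon-stimulated response element (ISRE), searched as GAAA, any 2 bases and GAAA again, or on the other strand TTTC, any 2 bases and TTTC. The GAS letters read the same on both strands. The 250 bases before each start come from RefSeq on GRCm38.p6, while the authors' notes name mm39, so the coordinates are those of the reference table. Below are 5 genes of the lower group and, for contrast, Cux1 of the higher group, each 5′ to 3′ on its own strand, with motif letters in capitals.
Gbp5 (chr3:142496684-142496933, plus strand): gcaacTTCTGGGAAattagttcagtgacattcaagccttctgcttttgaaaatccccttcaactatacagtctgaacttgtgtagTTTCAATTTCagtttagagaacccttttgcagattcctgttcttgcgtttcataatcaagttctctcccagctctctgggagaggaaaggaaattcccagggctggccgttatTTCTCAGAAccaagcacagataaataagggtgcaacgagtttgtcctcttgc
Gbp2 (chr3:142620413-142620662, plus strand): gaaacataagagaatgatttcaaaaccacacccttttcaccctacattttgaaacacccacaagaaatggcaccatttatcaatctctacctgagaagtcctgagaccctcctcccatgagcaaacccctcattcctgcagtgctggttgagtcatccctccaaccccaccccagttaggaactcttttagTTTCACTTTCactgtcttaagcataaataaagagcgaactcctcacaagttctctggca
Igtp (chr11:58199306-58199555, plus strand): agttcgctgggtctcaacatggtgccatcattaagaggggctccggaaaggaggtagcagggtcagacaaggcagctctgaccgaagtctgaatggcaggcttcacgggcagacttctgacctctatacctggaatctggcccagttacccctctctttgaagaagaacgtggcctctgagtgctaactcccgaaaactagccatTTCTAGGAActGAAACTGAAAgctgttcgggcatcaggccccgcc
Irgm1 (chr11:48871421-48871670, minus strand): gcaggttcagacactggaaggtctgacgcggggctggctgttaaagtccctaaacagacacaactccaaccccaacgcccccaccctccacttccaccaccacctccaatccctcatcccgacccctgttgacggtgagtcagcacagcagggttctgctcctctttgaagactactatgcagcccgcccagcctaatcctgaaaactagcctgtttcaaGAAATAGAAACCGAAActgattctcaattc
Cxcl10 (chr5:92348890-92349139, minus strand): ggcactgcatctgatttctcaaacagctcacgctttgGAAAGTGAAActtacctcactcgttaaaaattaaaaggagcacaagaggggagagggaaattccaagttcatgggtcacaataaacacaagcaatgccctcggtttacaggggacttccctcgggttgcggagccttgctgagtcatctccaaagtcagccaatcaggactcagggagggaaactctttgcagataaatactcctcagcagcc
Cux1 (chr5:136565982-136566231, minus strand): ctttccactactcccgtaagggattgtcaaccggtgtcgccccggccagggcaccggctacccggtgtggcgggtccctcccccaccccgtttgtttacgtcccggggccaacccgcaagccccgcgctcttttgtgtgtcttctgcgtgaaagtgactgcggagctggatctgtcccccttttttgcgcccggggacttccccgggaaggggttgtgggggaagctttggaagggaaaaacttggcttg

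Gbp5 held 2 GAS and 1 ISRE, Igtp 1 of each only 2 bases apart, Irgm1 2 overlapping ISRE, and Gbp2 and Cxcl10 1 ISRE each. In Cux1 neither set of letters was found in this window. Of all 27025 genes in the table, 8.13% held a GAS, 3.46% an ISRE and 11.1% either. Of the 40 genes of the interferon-gamma list, 26 were matched, and 11 of these (42.3%) held a GAS, 13 (50%) an ISRE and 18 (69.2%) either. Of 30 matched type I interferon genes, 18 (60%) held either, and of 31 matched maturity genes 6 (19.4%). The class I list was nearer to the maturity genes, with 5 of 20 matched genes (25%) holding either. So was the list of inflammatory cytokines and NF-kB, with 7 of 33 (21.2%), while glycolysis and hypoxia had 1 of 25 (4%). Of the 12 eligible genes with the lowest ratios, 10 were matched and 6 held either, and of the 12 highest, 6 were matched and 0 held either. Among the 12 lowest, Ifi47, Ly6a2, H2-Q4 and H2-Q6 were matched and held neither. A match describes letters, not binding.

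Across the interferon-gamma list, 28 of 39 genes measured were at least 2-fold lower in KO and 0 were higher, with a median log2 ratio of -1.51; over all genes measured the share was 7.12% and the median 0.00. The list was chosen with earlier results of these data known, so its direction is not independent evidence. Irf1, an interferon-induced transcription factor, stood at 370 CPM in KO and 738 CPM in WT. Cd274, which encodes PD-L1, the ligand of the T-cell checkpoint PD-1, stood at 85.8 CPM in KO and 362 CPM in WT, 4.22-fold lower (3.51 to 5.11). Socs1, a feedback inhibitor of the pathway, stood at 16.0 CPM in KO and 54.2 CPM in WT. Cxcl9, a further CXCR3 ligand, stood at 45.3 CPM in KO and 192 CPM in WT, with all KO UMIs in the top 1% of cells. Only Irf9 (158 CPM in KO, 149 CPM in WT) and Ciita (24.4 and 22.8 CPM) of the list lay above 0.

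The receptors did not share this pattern. Ifngr1 stood at 248 CPM in KO members and 176 CPM in WT members, and Ifngr2 at 119 and 129 CPM. The type I receptor genes Ifnar1 (62.1 CPM in KO, 61.3 CPM in WT) and Ifnar2 (218 and 200.5 CPM) were close, with ratio intervals that included equality.

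The list also differed cell by cell. In members thinned to 1000 UMIs, the interferon-gamma genes together gave a median of 1 UMI in KO (quartiles 0 and 3) and 5 UMIs in WT (3 and 9). None was found in 26.8% of 605 KO members and 4.01% of 2096 WT members. Of KO members, 5.62% lay above the WT median. The upper decile began at 4 UMIs in KO and 15 in WT, so the WT members spanned more UMIs, about a higher median. Spread relative to the median was not compared. B cells thinned alike had medians of 2 UMIs in KO and 3 in WT.

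**Figure D3:**
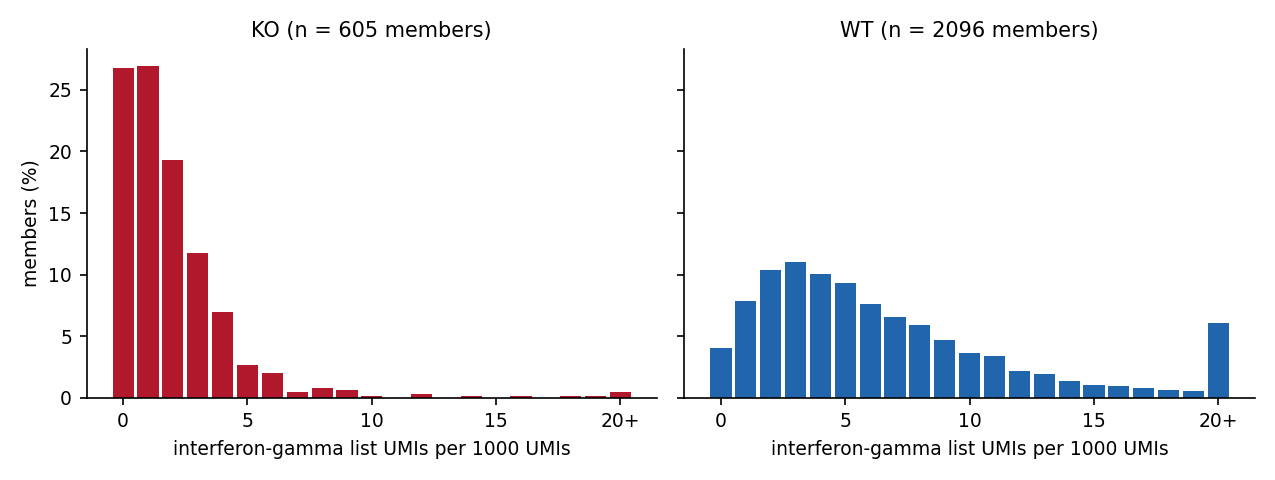
Percentage of mature neutrophils (y axis) by the number of UMIs of the interferon-gamma list among 1000 UMIs per cell (x axis, 20 or more in the last bar), KO left with 605 members and WT right with 2096. KO members pile up at 0 and 1 UMI, with 26.8% at 0, while WT members peak at 3 UMIs and reach well beyond 10.

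Class I antigen presentation genes were lower in KO members too. Of its 23 genes, all lay below 0 and 16 were at least 2-fold lower in KO, with a median of -1.39, beside 49.8% and 7.12% of all genes. The class I heavy chain H2-K1 stood at 557 CPM in KO and 1733 CPM in WT, 3.11-fold lower (2.89 to 3.35). B2m, its light chain, stood at 901 CPM in KO and 2102 CPM in WT, and H2-D1 at 1107 and 1911 CPM. Psmb9, a catalytic subunit of the immunoproteasome, stood at 104 CPM in KO and 371 CPM in WT, and its partner Psmb8 at 71.8 and 216 CPM. Tap1, which carries peptides into the endoplasmic reticulum, stood at 87.2 CPM in KO and 277 CPM in WT. Nlrc5, the factor that activates class I promoters, stood at 77.4 CPM in KO and 222 CPM in WT. The folding chaperones that serve other proteins too were nearer to equal, with Calr at 53.7 and 79.8 CPM and Canx at 41.2 and 54.9 CPM. H2-Q4, H2-Q6 and H2-Q7, like the Gbp, Tgtp, Ifit, Ly6 and Stfa families, have near-identical copies, and how the counting split reads among them is not given, so single members of these families are uncertain. Of 11 class II genes, 0 were at least 2-fold lower and 1 was higher (7.12% and 2.83% of all genes), with a median of -0.31. The higher one was Cd80, a costimulatory ligand that stood at 142 CPM in KO and 59.8 CPM in WT. The class II median depended on depth, at -1.65 in members under 1000 UMIs and -1.20 at 1000 to under 2000 UMIs. B cells held far more class II RNA than members (Cd74 369 CPM in KO and 457 CPM in WT members, 5470 and 5079 CPM in B cells).

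The type I interferon list was less even. Of 36 genes, 14 were at least 2-fold lower in KO and 0 higher, beside 7.12% and 2.83% of all genes, with a median of -0.61. Isg15, a ubiquitin-like modifier, stood at 121 CPM in KO and 392 CPM in WT, 3.23-fold lower (2.76 to 3.80). Ifit3, which binds viral RNA complexes, stood at 16.7 CPM in KO and 72.8 CPM in WT, and Oasl2 at 571 and 945 CPM. Other antiviral genes were nearly level: Rsad2, which encodes viperin, stood at 194 CPM in KO and 215 CPM in WT, and Oas2 at 149 and 152 CPM. Trim30a stood at 994 CPM in KO and 971 CPM in WT. Slfn4, a myeloid Schlafen gene, stood at 1011 CPM in KO and 858 CPM in WT.

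**Figure D4:**
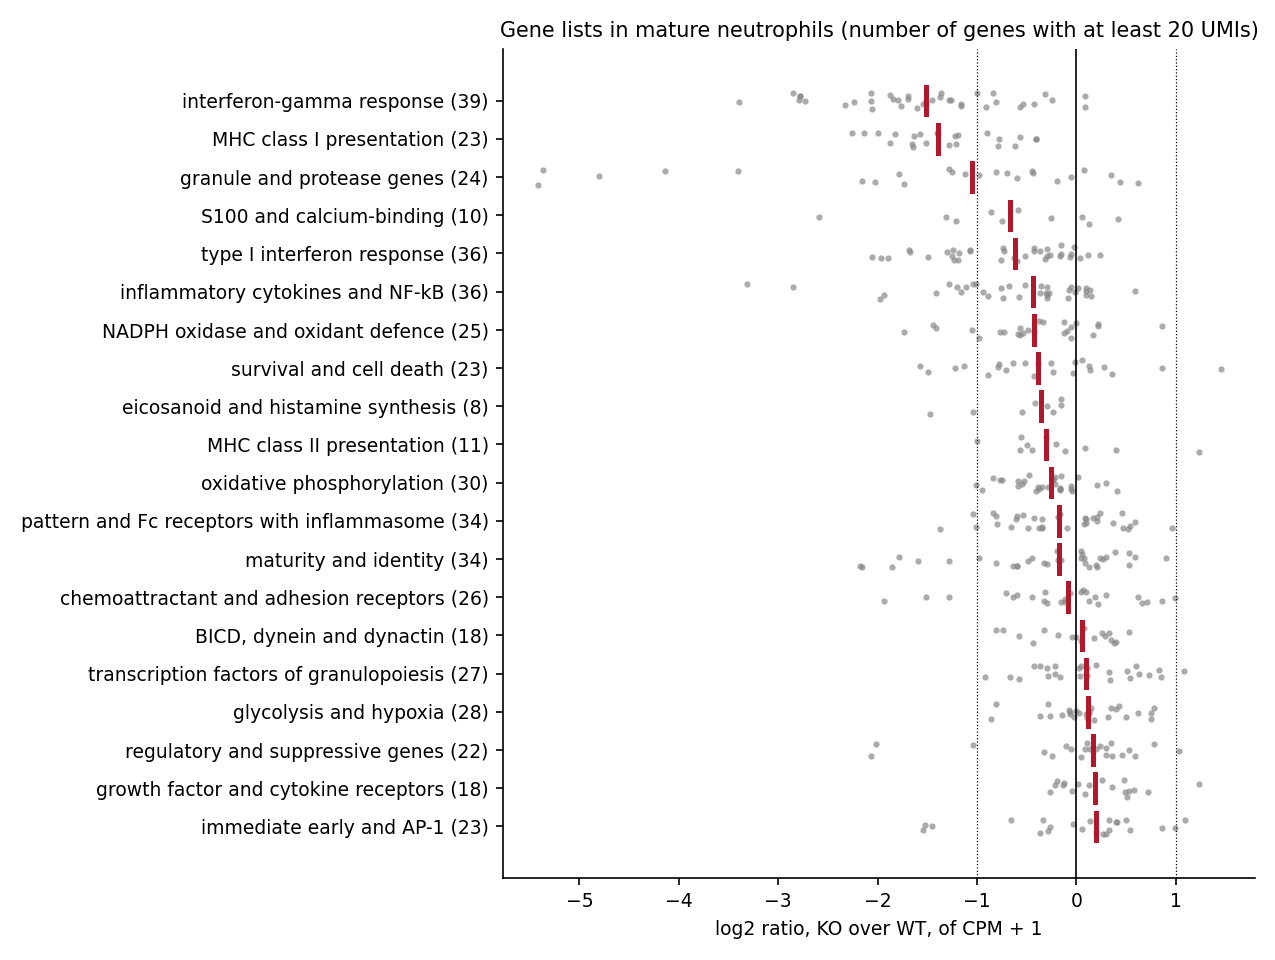
Log2 ratio KO over WT of CPM + 1 (x axis) for every gene with at least 20 UMIs in each of 20 lists (y axis, number of genes in brackets), with grey points for genes, red bars for list medians and dotted lines at 2-fold. The interferon-gamma list has its median at -1.51 and the class I list at -1.39, while most other lists straddle 0.

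Immature neutrophils and classical monocytes of the same libraries were set beside mature neutrophils. Monocytes were barcodes with Csf1r, Ly6c2 and Ccr2 UMIs and no UMI of Csf3r, Cxcr2, Retnlg or Stfa2l1, 89 in KO and 149 in WT. Genes at 0 in a library were set to 3 UMIs there. The interferon-gamma median was -1.51 in mature neutrophils, -1.04 in immature neutrophils and -1.73 in monocytes. The class I median was -1.39, -0.73 and -0.97 in that order. The type I median was -0.61 in mature neutrophils, 0.06 in immature neutrophils and 0.35 in monocytes, and the class II median -0.31, -0.70 and -1.13. At least 2-fold lower in KO, with zeros left as counted, were 24 of 33 interferon-gamma genes in immature neutrophils and 24 of 34 in monocytes, where 18.8% and 7.59% of all genes were. With zeros set to 3 UMIs the count was 17 of 33 in immature neutrophils and stayed at 24 of 34 in monocytes. The smaller groups rest on 68 KO immature neutrophils and 89 KO monocytes, and whether the populations differ was not tested. Isg15 had a log2 ratio of -1.68 in mature neutrophils, -1.06 in immature neutrophils and -0.23 in monocytes. In all other passing barcodes Gbp2 stood at 35.7 CPM in KO and 190 CPM in WT.

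**Figure D5:**
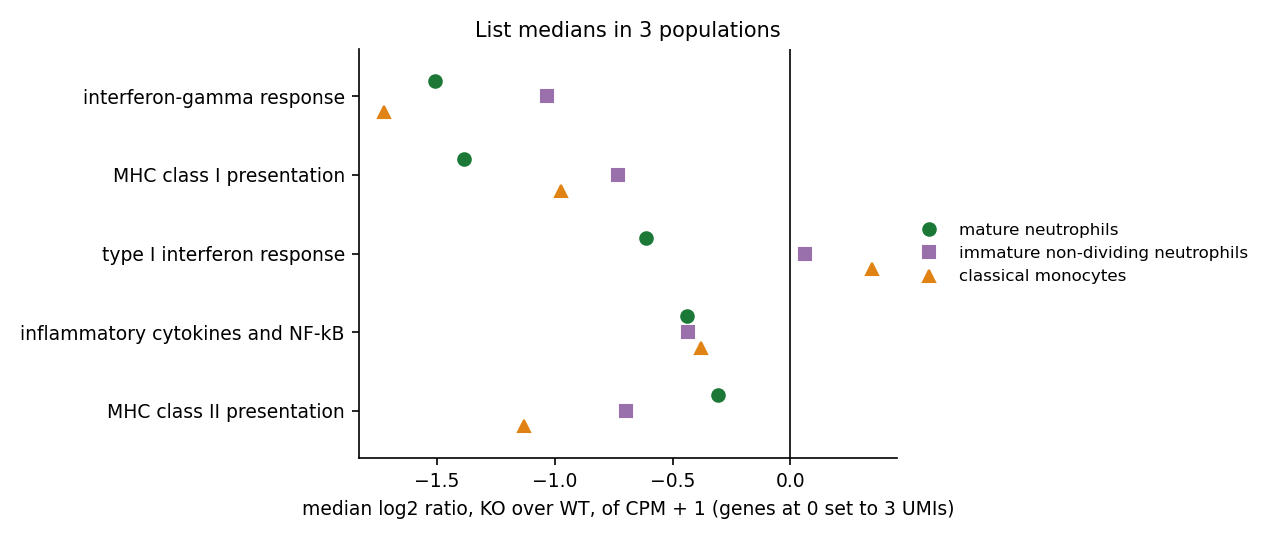
Median log2 ratio KO over WT of CPM + 1 (x axis, genes at 0 set to 3 UMIs) of 5 lists in mature neutrophils (circles), immature non-dividing neutrophils (squares) and classical monocytes (triangles). The interferon-gamma medians lie at or below -1.04 in all 3, and the type I medians at -0.61, 0.06 and 0.35.

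Inflammatory genes were divided. Of 36 cytokine and NF-kB genes, 11 were at least 2-fold lower in KO and 0 higher, beside 7.12% and 2.83% of all genes, with a median of -0.44. Cxcl2, a neutrophil chemoattractant, stood at 39.8 CPM in KO and 159 CPM in WT, 3.99-fold lower (3.05 to 5.33), and its log2 ratio of -1.97 was -1.34 with Csf1r, Cd3e or Cd79a UMIs allowed. Icam1, an adhesion ligand, stood at 26.5 CPM in KO and 104 CPM in WT. Tnf stood at 16.0 CPM in KO and 40.4 CPM in WT, and the NF-kB feedback gene Tnfaip3 at 34.2 and 79.6 CPM. Il1b, the cytokine that inflammasomes release in mature form, stood at 1830 CPM in KO and 1661 CPM in WT. Its log2 ratio of 0.14 became -0.14 in members without a Camp, Ngp or Ltf UMI. Il1a and Il12b held 0 UMIs in KO members, against 29 and 42 UMIs in WT members.

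Receptors for interleukin-1 stood on the higher side. Il1rap, the accessory chain of the interleukin-1 receptor, stood at 1145 CPM in KO and 486.5 CPM in WT, 2.35-fold higher (2.21 to 2.51). Thinned alike, 61.3% of KO and 34.9% of WT members held an Il1rap UMI, against 4.35% and 3.68% of B cells. Il1r2, the decoy receptor, stood at 858 CPM in KO and 593 CPM in WT. Il1rap was the only one of 18 growth factor and cytokine receptor genes at least 2-fold higher, where 2.83% of all genes were, and 0 were 2-fold lower, with a median of 0.19. Tnfrsf1a (268 CPM in KO, 312 CPM in WT) and Il17ra (432 and 407 CPM) were near level.

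Receptors for homing were mostly near level. Of 26 chemoattractant and adhesion genes, 3 were at least 2-fold lower (Icam1, Ccrl2 and Cd177) and 0 higher, with a median of -0.09. With 7.12% of all genes lower, a count this small is no result about the list. Itgam, an integrin chain, stood at 554 CPM in KO and 600 CPM in WT. The formyl peptide receptor Fpr1 stood at 197 CPM in KO and 298 CPM in WT. Cxcr4, which draws aged neutrophils back to marrow, stood at 285 CPM in KO and 157 CPM in WT. B cells had similar Cxcr4 levels, 290.5 CPM in KO and 159 CPM in WT. Selplg, the selectin ligand PSGL-1, stood at 1337 CPM in KO and 846.5 CPM in WT.

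Maturity genes were divided and granule genes leaned lower. Of 34 maturity genes, 6 were at least 2-fold lower in KO and 0 higher, beside 7.12% and 2.83% of all genes, with a median of -0.17 that was 0.13 in members under 1000 UMIs. The lower genes were Stfa1, Stfa2 and Stfa3, which encode stefins, with Itgb2l, Ly6g and Cd177. Ly6g, the surface antigen used to sort mouse neutrophils, stood at 77.4 CPM in KO and 282 CPM in WT, 3.64-fold lower (3.00 to 4.46). Its log2 ratio of -1.85 was -0.99 at 1000 to under 2000 UMIs and -0.89 in members with 1% to 3% haemoglobin UMIs, both under 2-fold. Lcn2, a siderophore-binding protein of secondary granules, stood at 1045 CPM in KO and 2064 CPM in WT. Il1r2, Cd33 (550.3 and 421 CPM) and Siglece (340.4 and 226 CPM) lay above 0. Of 24 granule and protease genes, 12 were at least 2-fold lower and 0 higher, with a median of -1.05. That median was -0.27 in members under 1000 UMIs, -0.51 at 1000 to under 2000 UMIs and -0.44 at 1% to 3% haemoglobin UMIs. Markers of other neutrophil stages moved with them: 8 of 11 immature neutrophil markers were at least 2-fold lower, with sums of 1341 CPM in KO and 3042 CPM in WT, and 5 of 6 early progenitor markers, with sums of 14.7 and 210 CPM. The lowest were the primary granule genes Elane, Mpo, Prtn3 and Ctsg, which mature neutrophils no longer transcribe. Elane held 1 UMI in KO members and 336 in WT members, and Mpo 0 and 188. In WT B cells Elane stood at 102 CPM, and in WT members at 71.7 CPM. Camp stood at 1428 CPM in WT B cells and 294 CPM in WT members. The rule capped Camp, Ngp and Ltf in members and not in B cells, and doublets were kept in both. Neither the Camp nor the Elane values can therefore be compared in this way, and the source of the Elane UMIs was not tested. The collagenase Mmp8 stood at 1116 CPM in KO and 1694 CPM in WT, and the gelatinase Mmp9 at 1059 and 1213 CPM. The Mmp9 ratio, -0.20, lay above 0 in members of matched depth (0.12 under 1000 UMIs, 0.069 at 1000 to under 2000). In members without a Camp, Ngp or Ltf UMI (1153 in KO and 729 in WT), 290 genes in all were at least 2-fold lower, against 694 in all members. Genes needed at least 20 UMIs within the members used, so the 2 counts are over different numbers of genes and cannot be compared as shares. The interferon-gamma median in members without such a UMI was -1.71.

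Of 25 NADPH oxidase and oxidant defence genes, 4 were at least 2-fold lower in KO and 0 higher, beside 7.12% and 2.83% of all genes, with a median of -0.43. Cybb, the catalytic oxidase subunit that interferon-gamma also induces, stood at 76.0 CPM in KO and 255 CPM in WT, 3.36-fold lower (2.76 to 4.12). B cells held 266 CPM in KO and 361 CPM in WT, above members of their own library. Prdx5, a peroxiredoxin, stood at 607 CPM in KO and 1653 CPM in WT. Of 34 pattern and Fc receptor genes, 3 were at least 2-fold lower (Pycard, Nod1 and Clec4a2) and 0 higher, a share near the 7.12% of all genes. Tlr2 stood at 114 CPM in KO and 108.5 CPM in WT, Tlr4 at 147 and 97.1 CPM, Nlrp3 at 298 and 205 CPM, and the Fc receptor chain Fcer1g at 1019 and 1767 CPM. Of 10 S100 and annexin genes outside the rule, 3 were at least 2-fold lower, Anxa3, S100a4 and S100a10, with a median of -0.66 that was -0.15 in members under 1000 UMIs. S100a11 stood at 2267 CPM in KO and 4100 CPM in WT, and S100a6 at 7508 and 8948 CPM.

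Fewer genes were higher in KO. Among 61 eligible genes, the 12 with the highest ratios included Rnf125, Cnnm2, Kcnq5, Bpgm, Retn, Zbtb16, Pde3b, AU019990, Ccdc80, Gramd3 and Cux1. Cux1, a homeodomain transcription factor, stood at 1403 CPM in KO and 494 CPM in WT, 2.84-fold higher (2.67 to 3.02). A Cux1 UMI was held by 68.4% of KO and 35.5% of WT members thinned alike, against 31.4% and 25.8% of B cells. Rnf125, a ubiquitin ligase, stood at 111 CPM in KO and 22.8 CPM in WT, with 15.3 and 7.89 CPM in B cells. Cnnm2, a magnesium transporter gene, stood at 119 CPM in KO and 24.6 CPM in WT, with 11.5 and 11.6 CPM in B cells. Retn, which encodes resistin, stood at 92.1 CPM in KO and 27.8 CPM in WT, with 0.96 and 1.66 CPM in B cells. Others of the 12 were higher in B cells than in members of the same library: Kcnq5 at 936 CPM in KO and 699 CPM in WT B cells against 224 and 53.4 CPM in members, with Pde3b and Gramd3 alike. Bpgm, an enzyme of red cells, stood at 67.7 CPM in KO and 19.2 CPM in WT members and at 44.7 and 18.3 CPM in B cells, and it moved with the haemoglobin genes. With the estimated free RNA subtracted, no Bpgm level was left in either library. Several of these ratios fell below 2-fold in members under 1000 UMIs. There the log2 ratio of Kcnq5 was 0.17 (2.05 in all members), that of Pde3b 0.71 (1.61), that of Zbtb16 0.80 (1.66) and that of Gramd3 -0.40 (1.54).

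Transcription factor genes lay above 0 in 17 of 27 cases and survival genes below 0 in 16 of 23, beside 49.8% of all genes below 0. Of all genes, 7.12% were at least 2-fold lower and 2.83% higher, and the small 2-fold counts below are no result about the lists. Of 27 transcription factor genes of granulopoiesis, 0 were at least 2-fold lower and 1, Ets2, was higher, at 293 CPM in KO and 138 CPM in WT. Cebpb, which drives emergency granulopoiesis, stood at 1310 CPM in KO and 738 CPM in WT, 1.77-fold higher (1.68 to 1.88). Spi1, which encodes PU.1, stood at 1014 CPM in KO and 980 CPM in WT. Of 23 immediate early and AP-1 genes, 3 were at least 2-fold lower (Egr1, Egr3 and Maff, all under 20 CPM) and 1, Fosb, higher, at 9.77 CPM in KO and 4.06 CPM in WT. Fosl2 stood at 412 CPM in KO and 206 CPM in WT, and Jund at 1127 and 621 CPM. Of 23 survival genes, 16 lay below 0, 4 were at least 2-fold lower and 1 higher, with a median of -0.38. Mcl1, on which neutrophil survival depends, stood at 1528 CPM in KO and 1188 CPM in WT, and Bcl2l1 at 202 and 110 CPM. Bcl2 stood at 283 CPM in KO and 103 CPM in WT, but at 710 and 617 CPM in B cells, and its log2 ratio of 1.45 became -0.81 in members under 1000 UMIs. Of 22 regulatory and suppressive genes, 3 were at least 2-fold lower (Cd274, Olr1 and Ptgs2) and 1 higher. The higher one, the myeloid receptor gene Cd300ld, stood at 449 CPM in KO and 220 CPM in WT, while Arg2, an arginase, stood at 887 and 643 CPM.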

How the data were processed

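The authors deposited, for each of 2 libraries, a matrix of raw UMI counts per gene and barcode (10x 3' chemistry v3.1, per the labels' protocols), with no normalization. Cell Ranger 8.0.1 is named in the matrix headers. The submitters' processing notes give Cell Ranger 6.0.1 with Seurat 4.3.0, on mm39. The matrices held 33696 genes, 52 sharing a symbol and kept apart by identifier, and every barcode had at least 500 UMIs. Library totals were 63869430 UMIs in KO and 81159013 in WT, of which members held 1433642 and 4684098.

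UMIs were summed over members and scaled to CPM. Ratios given as folds are of CPM, and log2 ratios are of CPM plus 1. Levels carry exact Poisson intervals, ratios of levels exact conditional binomial intervals and shares exact Clopper-Pearson intervals. The log2 ratio of shares carries a log-normal interval. Only the intervals of level ratios were tested, on simulated Poisson sums, which do not model UMIs clustered in cells. Genes needed at least 20 UMIs over both libraries. Cells thinned to 1000 UMIs left out 630 KO and 478 WT members. The free RNA level was the median S100a8 plus S100a9 UMIs per B cell over their share in all barcodes; with the mean in place of the median it was 569 UMIs in KO and 1116 in WT (49.1% and 61.3% of member UMIs). Doublets were marked with Scrublet (scanpy 1.11.5) and kept, except in 1 alternative.

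Named genes were the 12 lowest and 12 highest ratios among genes at least 2-fold apart, with an interval that left out equality and, in the higher library, at least 50 UMIs, 50 CPM and a UMI in 5% of members. Genes of the mitochondrial genome, ribosomal proteins, haemoglobins, antigen receptors and the sex chromosomes' marker list, predicted genes, rule genes and markers of other cells were not eligible, and list members and markers could also be named. The members and all lists were chosen with earlier results of these data known, so no list is independent support for a pattern seen before. edgeR 4.0.16 and DESeq2 1.42.0 gave alternative scalings only, since 1 library per genotype allows no test. A few genes are not reported here.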

Additional observations from a re-analysis of the deposited data

How the results depend on the processing

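No paired analysis was possible because each genotype was 1 library, and for the same reason no library could be left out. Of 400 list medians recomputed, 384 stayed within their interval. Those on the other side of 0 were 7, in 5 lists. In members under 1000 UMIs, eicosanoid and histamine synthesis was 0.011 (against -0.35, an interval that left out 0), maturity 0.13, chemoattractant and adhesion receptors 0.073, pattern and Fc receptors 0.20, and BICD, dynein and dynactin -0.087. The maturity median was also 0.017 at 1000 to under 2000 UMIs and 0.013 at 1% to 3% haemoglobin. The interferon-gamma median ranged between -2.23 and -1.04, class I between -1.73 and -1.14, class II between -1.65 and -0.15, granule genes between -1.06 and -0.27, type I between -1.08 and -0.47, and the inflammatory list between -0.55 and -0.31. Counts of genes at least 2-fold lower and higher (694 and 276) were 1238 and 708 with no minimum count, 219 and 115 with a minimum of 100, and 153 and 72 with a pseudocount of 10 CPM. The lower count was 290 in members with no Camp, Ngp or Ltf UMI. Apart from the pseudocount setting, which kept the same genes, these counts are over different numbers of genes and cannot be compared as shares. The log2 ratio of the share was 0.42 of mature plus immature neutrophils and 0.21 with the granule threshold at 0.1%. It was -1.10 after thinning, which left out barcodes under 1000 UMIs. It was -0.74 with at least 500 genes and at most 10% mitochondrial UMIs together, and -0.61 with Csf1r, Cd3e or Cd79a UMIs allowed. Single genes that changed sign were Il1b (-0.14 with no granule UMI), Gramd3 (-0.40), Hdc (0.078) and Bcl2 (-0.81) under 1000 UMIs, and Mmp9 (0.12 there, 0.069 at 1000 to under 2000 UMIs, 0.12 at 1% to 3% haemoglobin). The subsets by depth, haemoglobin and granule UMIs, and the allowance of those UMIs, were chosen after seeing the data; the cause of each change was not tested. Depth limits genes under about 10 CPM, where KO members hold few UMIs.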

Other observations

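Few genes of energy metabolism or of the motor machinery of the targeted adaptor were 2-fold apart in mature neutrophils. Few of all genes were either (7.12% lower and 2.83% higher), so the small 2-fold counts are no result about these lists. Of 28 glycolysis and hypoxia genes, 0 were at least 2-fold apart in either direction, with a median log2 ratio of 0.11. Slc16a3, the lactate exporter, stood at 455.5 CPM in KO members and 270 CPM in WT members, Hif1a at 388.5 and 226 CPM, and Gapdh at 453 and 792 CPM. Of 30 oxidative phosphorylation genes, 1, Uqcrb, was at least 2-fold lower (20.9 CPM in KO, 43.1 CPM in WT), with a median of -0.26. Of the 30, 26 lay below 0, beside 49.8% of all genes, and the median was -0.54 in members under 1000 UMIs. Of 18 BICD, dynein and dynactin genes, 0 were at least 2-fold apart, with a median of 0.06. Pafah1b1, which encodes the dynein regulator LIS1, stood at 361 CPM in KO and 283 CPM in WT.

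Of 8 eicosanoid and histamine genes, 2 were at least 2-fold lower in KO, beside 7.12% of all genes. They were the phospholipase gene Pla2g4a (14.7 CPM in KO, 42.5 CPM in WT) and Ptgs2 (9.07 and 19.6 CPM). Alox5, the enzyme that starts leukotriene synthesis, stood at 210 CPM in KO and 234 CPM in WT. The nuclear RNA Malat1 stood at 35968 CPM in KO and 23769 CPM in WT members, and at 19075 and 15446 CPM in B cells. Markers of hepatocytes summed to 123 CPM in KO and 62.8 CPM in WT members, and those of eosinophils to 13.95 and 12.2 CPM.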
